A study of Mus musculus with 1 sample.

Results

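Zfp980 and Zfp987 are protein-coding genes on mouse chromosome 4 that encode zinc finger proteins and lie 393 kb apart with other genes between them. In these cells their mRNAs carried some of the shortest poly(A) tails measured. The pair was chosen by that short tail length, in the same reads that are described here, so the lengths below are a description and were not tested. Members are the reads of at least 7 passes that were assigned to either gene: 136 transcripts of Zfp980 and 104 of Zfp987, 240 in all, among 701976 transcripts of nuclear genes and 803537 transcripts assigned to any gene. A pass is 1 reading of the same circular cDNA molecule on the PacBio platform, a transcript is 1 read that met this minimum, and tail length counts every base of the tail, whether A or not.

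The reads came from wild-type mouse embryonic stem cells (ESCs) of the ICR strain that had been moved for 24 h towards epiblast-like cells (EpiLCs), the culture form of the formative epiblast, in N2B27 medium with activin A, bFGF and KSR on Matrigel. Tails were measured by PAIso-seq, in which the RNA end is extended with a barcode, the full-length cDNA is amplified and circularised, and the tail is read together with the transcript body. The sample held 2 replicates marked by barcodes in 1 table, with 246316 nuclear transcripts in replicate 1 and 455660 in replicate 2. The study calls its replicates independent, and the labels do not say whether they were separate cultures, so part of the spread between them may be technical.

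Most mammalian genes of this kind encode a KRAB domain followed by a row of C2H2 zinc fingers. The fingers bind DNA, often in transposable elements, and the KRAB domain recruits the corepressor TRIM28, which brings in silencing of chromatin. Such genes lie in clusters that grew by duplication, and the cluster on distal mouse chromosome 4 is one of the large rodent-specific examples. A poly(A) tail is added to the mRNA as it is cleaved, is shortened by deadenylases such as the CCR4-NOT complex, and can receive uridines at its end, which appear as T in cDNA.

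Zfp980 (ENSMUSG00000058186) lies on the plus strand of GRCm38 (mm10) chromosome 4 from 145670685 to 145704441. Its longest annotated transcript has 4006 nt in 5 exons, and the last exon, from 145700905 to 145704441, holds the stop codon and an annotated 3′ UTR of 1801 nt. Zfp987 (ENSMUSG00000066009) lies on the same strand from 146097298 to 146126621, 393 kb further along, with 2798 nt in 4 exons and a 3′ UTR of 720 nt in the last exon, which runs from 146124157 to 146126621. The 645 codons of Zfp980 and the 633 of Zfp987 are annotated with GENCODE vM21. An antisense lincRNA, Gm26763, and a processed pseudogene, Gm13239, overlap Zfp980, and it is not given in the sources used here whether strand was used in counting, so reads of overlapping genes may not have been told apart.

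Some tails of each gene are printed below as examples. Bases other than A are in capitals, the 5′ end of the tail is on the left, and these sequences were picked because they end in T, carry several non-A bases or were read more than once.
Zfp980 tail, read 5 times in replicate 2: TTaaaaaaaaaaaaTTT
Zfp980 tail, read once in replicate 1: aaaaaaaaaaaaaaaT
Zfp980 tail, read once in replicate 1: aaaaaaaaaaaaaaaaaTaT
Zfp980 tail, read 2 times in replicate 2: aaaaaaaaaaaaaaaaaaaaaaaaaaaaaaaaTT
Zfp980 tail, read once in replicate 2: aaaaaaaaaGTa
Zfp980 tail, read once in replicate 2: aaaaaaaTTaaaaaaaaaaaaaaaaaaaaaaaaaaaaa
Zfp980 tail, read once in replicate 1: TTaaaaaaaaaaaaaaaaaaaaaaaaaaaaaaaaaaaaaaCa
Zfp987 tail, read 3 times in replicate 2: aaaaT
Zfp987 tail, read 2 times in replicate 1: aaaaaaTT
Zfp987 tail, read once in replicate 1: aaaaaaTTT
Zfp987 tail, read once in replicate 2: aaaaTTTaaa
Zfp987 tail, read 2 times in replicate 2: aaaaaaaaaaT
Zfp987 tail, read once in replicate 2: aaaaaaaaaaaaaTT
The tails of Zfp987 that end in T were mostly of 15 nt or less and those of Zfp980 began at 16 nt, but Zfp980 had only 3 tails between 6 and 15 nt in all, against 15 of Zfp987. The first Zfp980 sequence, of 17 nt with T at both ends, occurred in 5 nuclear reads in all, every one of them from Zfp980 in replicate 2.

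Both genes were detected in each replicate at a like share of the reads. Zfp980 was read 45 times in replicate 1, which is 0.0183% of nuclear transcripts (95% Wilson interval 0.0137 to 0.0244), and 91 times in replicate 2, which is 0.0200% (0.0163 to 0.0245). Zfp987 was read 39 and 65 times, or 0.0158% (0.0116 to 0.0216) and 0.0143% (0.0112 to 0.0182). The intervals of the replicates overlapped for each gene. Counted by transcripts, Zfp980 exceeded 89.1% and 91% of the genes detected in the replicates and Zfp987 exceeded 87.2% in each. All intervals cover counting error only, since no molecular identifier is given in the sources used here and reads of PCR copies cannot be told apart. Fewer cells with a transcript and fewer transcripts per cell cannot be told apart in such bulk RNA.

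The 45 tails of Zfp980 in replicate 1 had a geometric mean of 34.7 nt, and the 91 tails in replicate 2 had 18.4 nt. For Zfp987 the replicates gave 32.6 nt and 19.3 nt, and for the other nuclear transcripts 77.2 nt and 73.9 nt. Both genes were therefore below the general level in each replicate, by a wider margin in replicate 2. The replicates averaged 26.5 nt ± 11.5 (SD, n = 2) for Zfp980 and 26 nt ± 9.36 (SD, n = 2) for Zfp987, so the genes differed from each other by less than the spread between replicates. The medians were also below the general level, with 31 nt and 38 nt for Zfp980, 46 nt and 28 nt for Zfp987, and 91 nt in each replicate for the other transcripts. The individual tails ran from 1 nt to 275 nt in Zfp980 and from 1 nt to 230 nt in Zfp987. The quartiles of Zfp980 were 20 nt and 79 nt in replicate 1 and 3 nt and 75 nt in replicate 2, and those of Zfp987 were 16 nt and 91 nt, then 5 nt and 79 nt. In proportion, the lower quartiles differed further between replicates than the upper quartiles did.

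**Figure D1:**
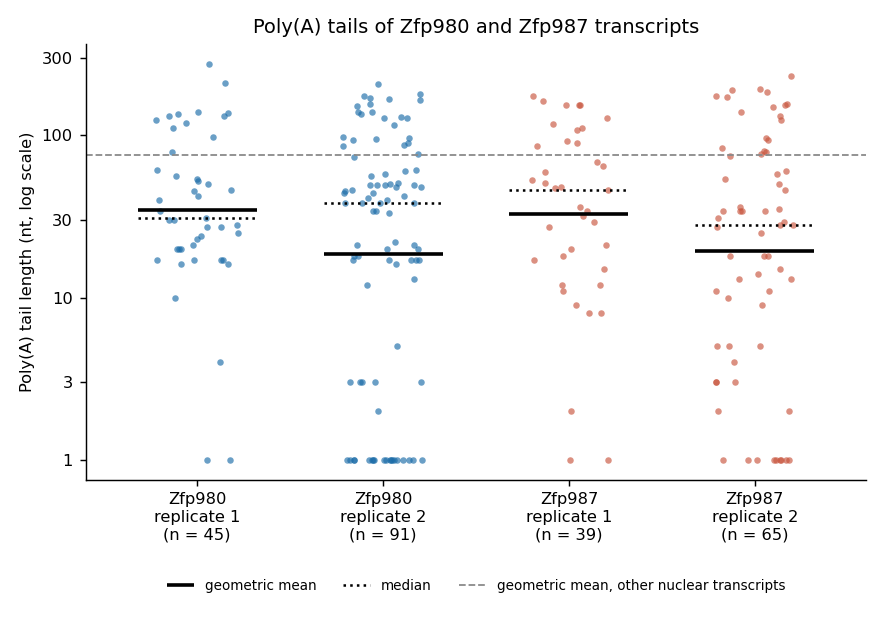
Poly(A) tail length (nt, log scale) of every transcript of Zfp980 and Zfp987 in each replicate, with the geometric mean (solid), the median (dotted) and the geometric mean of the other nuclear transcripts (dashed, 75.1 nt). Replicate 2 of each gene has a row of tails at 1 nt, 19 for Zfp980 and 9 for Zfp987, and in each replicate other tails reach past 150 nt.

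The place of the pair was set among 1775 nuclear genes that had at least 30 transcripts in each replicate, by the pooled geometric mean, which was 22.7 nt for Zfp980 and 23.5 nt for Zfp987 against a median gene of 79.0 nt. Only the lincRNA-annotated Gm42418 (1.42 nt), Malat1 (3.29 nt), a nuclear long noncoding RNA, and Gm26917 (5.82 nt) were shorter, so the pair had the shortest tails of the 1612 protein-coding genes in that set. Just outside came Dido1 (27.2 nt), a chromatin reader, Usp9x (32.8 nt), a deubiquitinase, and Rif1 (33.4 nt), a regulator of replication timing. In replicate 1 alone Zfp980 took place 8 and Zfp987 place 5, and in replicate 2 they took places 4 and 5. The ratio of replicate 2 to replicate 1 was 0.531 for Zfp980 and 0.593 for Zfp987, where the median gene had 0.990. Of the 1775 genes, 10 had a smaller ratio than Zfp980 and 24 a smaller one than Zfp987, and 11 and 25 genes differed by more when either direction was counted. The pair was chosen by tail length in these same reads, more of which came from replicate 2. Genes short in replicate 2 were thereby favoured, so these counts are not independent of the choice. Of the genes just outside, Dido1 and Usp9x were also shorter in replicate 2 (Usp9x 54.3 nt and 26.4 nt), while Rif1 was nearly level (33.6 nt and 33.4 nt). Of 7146 nuclear genes with at least 10 transcripts, 850, or 11.9%, had a geometric mean below 50 nt, and both members were below it by their choice.

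Among the length classes, the shortest differed between the replicates in both genes. Tails of 1 to 5 nt made up 3 of 45 Zfp980 transcripts in replicate 1 (6.67%, 95% Wilson interval 2.29 to 17.9) and 26 of 91 in replicate 2 (28.6%, 20.3 to 38.6). For Zfp987 they made up 3 of 39 (7.69%, 2.65 to 20.3) and 18 of 65 (27.7%, 18.3 to 39.6). The intervals of the replicates were apart for Zfp980 and overlapped for Zfp987. The other nuclear transcripts had 1.52% and 2.74%, so this class was the larger in replicate 2 across the table as well, from a low base. Among the 1775 genes the share of this class was above that of Zfp980 for 23 genes in replicate 1 and 5 in replicate 2, and above that of Zfp987 for 17 and 6. A lone A made up 32 of the 50 such tails of the pair, with 2 and 19 transcripts of Zfp980 and 2 and 9 of Zfp987. Within the class a lone A made up 73.1% for Zfp980 and 50% for Zfp987 in replicate 2, beside 59.9% for the other transcripts. In replicate 2 the Zfp980 reads with tails of 1 to 5 nt had a median of 56 passes against 26 for its longer tails, while for Zfp987 the values were 21.5 against 41. In replicate 1 the medians were 19 against 29.5 for the 3 short tails of Zfp980 and 11 against 20 for the 3 of Zfp987. The short-tailed reads thus had more passes than the others only for Zfp980 in replicate 2.

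The study's methods name a filter that removes tails with fewer than 4 A among the first 8 bases, yet the table holds tails too short to meet it, and at which step it was applied is not given in the sources used here. Left out in this way, chosen after the data were seen, were 2 and 25 tails of Zfp980, 3 and 14 of Zfp987, and 1.36% and 2.48% of the other transcripts. The geometric mean of the rest was 40.9 nt and 50.5 nt for Zfp980, 42.7 nt and 39.8 nt for Zfp987, and 81.6 nt and 81.8 nt for the other transcripts. Both genes were still below the other transcripts in each replicate, and Zfp980 was then the longer in replicate 2. Among the 1775 genes the pair then took places 6 and 4, with the median gene at 82.2 nt.

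With tails of 1 to 5 nt set aside, the replicates of each gene came closer. The geometric mean was then 43.2 nt and 52.4 nt for Zfp980 and 42.7 nt and 47.7 nt for Zfp987, against 82.0 nt and 82.5 nt for the other transcripts. Both genes stayed below the other transcripts in each replicate. The class of 16 to 60 nt held 28 of 45 and 38 of 91 transcripts of Zfp980 (62.2% and 41.8%), and 15 of 39 and 20 of 65 of Zfp987 (38.5% and 30.8%), where the other transcripts had 26.4% and 25.2%. Tails over 90 nt were the larger part of the other transcripts, 50.6% in each replicate, and were fewer in the members, at 24.4% and 20.9% for Zfp980 and 25.6% and 21.5% for Zfp987. The Wilson intervals of the replicates overlapped for this long class in each gene.

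The class of 16 to 30 nt differed between the replicates of Zfp980. In the shape of the spectrum, the genes differed from each other by less than the replicates of Zfp980 did. In replicate 1, 18 of 45 Zfp980 tails lay between 16 and 30 nt (40%, 27 to 54.5) and 1 between 6 and 15 nt, whereas Zfp987 had 6 of 39 (15.4%, 7.25 to 29.7) and 7 (17.9%, 8.98 to 32.7). In replicate 2 the class of 16 to 30 nt held 13 of 91 for Zfp980 (14.3%, 8.54 to 22.9), with an interval apart from that of replicate 1, and 8 of 65 for Zfp987 (12.3%), and the class of 6 to 15 nt held 2 and 8 (2.20% and 12.3%). Tails of 6 to 15 nt thus took the larger share in Zfp987 in each replicate, though within each replicate the Wilson intervals of the genes overlapped. Pooled, the shares were 2.21% for Zfp980 (0.753 to 6.28) and 14.4% for Zfp987 (8.94 to 22.4), where the intervals cover counting error only. As a measure of shape, the sum of absolute differences between the shares of the 7 classes was halved, so that 0 points mean identical spectra and 100 points mean no overlap. Zfp980 and Zfp987 were 20.1 points apart when pooled, 31.8 points in replicate 1 and 14.7 points in replicate 2, where the replicates of Zfp980 were 33.7 points apart and those of Zfp987 20 points. The pair was 41.0 points from the other nuclear transcripts.

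**Figure D2:**
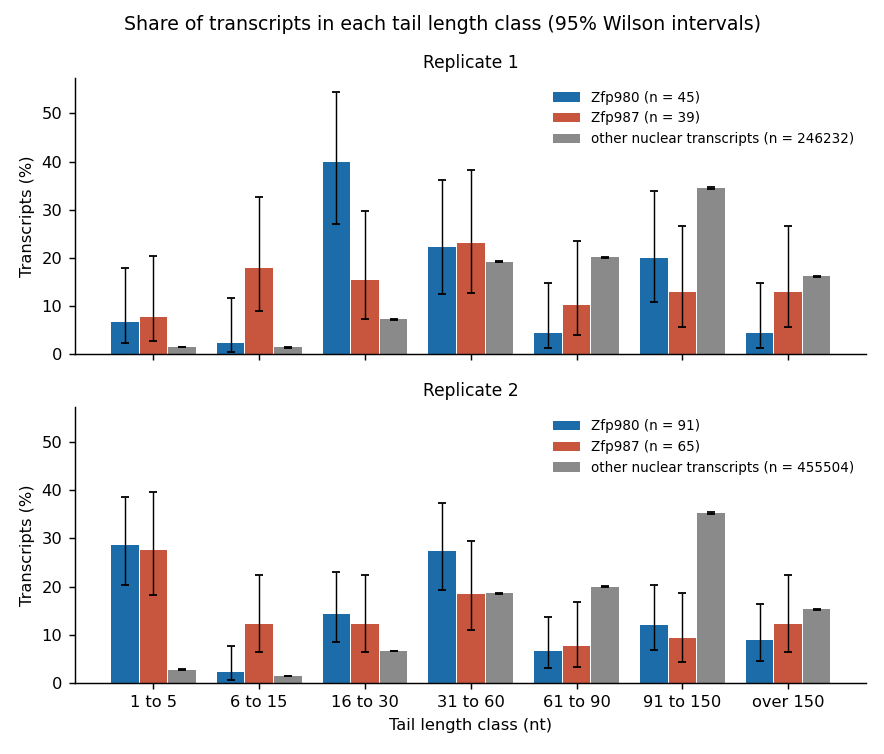
Percent of transcripts in each of 7 tail length classes (nt) for Zfp980, Zfp987 and all other nuclear transcripts, replicate 1 above and replicate 2 below, with 95% Wilson intervals. The class of 1 to 5 nt stands at 6.67% and 7.69% for the members in replicate 1 and at 28.6% and 27.7% in replicate 2, and the members stay below the other transcripts between 61 and 150 nt.

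The genes with spectra most like that of the pair, among 1773 compared over the same pooled transcripts, were Usp9x (15.4 points), Dido1 (15.5), Cenpe (15.5), Jmjd1c (16) and Nol8 (17.4), while the median gene was 42.0 points away. Cenpe encodes a kinetochore motor, Jmjd1c a histone demethylase family protein and Nol8 a nucleolar protein. None of these 5 lies on chromosome 4, though Zfp990 of the same cluster came at place 10 with 18.8 points and was 12.2 points from Zfp987 alone. Among the 5, Usp9x and Dido1 are also among the genes just outside the pair by length. Over the 5 genes, tails of 1 to 5 nt made up 10.3% to 17.8% of transcripts, below the 20.8% of the pair.

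Tails that end in T were read against the other transcripts of the same length class, since the share of such tails changes with length and the pair was chosen by length. Zfp980 had 4 of 45 in replicate 1 (8.89%, 3.51 to 20.7) and 9 of 91 in replicate 2 (9.89%, 5.29 to 17.7). Zfp987 had 4 of 39 (10.3%, 4.06 to 23.6) and 11 of 65 (16.9%, 9.72 to 27.8). At the class shares of the other transcripts, the same lengths would have given 3.88 and 3.30 tails for Zfp980 and 3.92 and 3.42 for Zfp987. The counts were thus level with the other transcripts in replicate 1 and above them in replicate 2 for both genes.

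The T-ending tails of the genes fell in different length classes, each of which held few tails. In Zfp980 they fell between 16 and 30 nt, with 4 of 18 in replicate 1 and 6 of 13 in replicate 2, and between 31 and 60 nt, with 0 of 10, which allows a share of up to 30%, and 3 of 25, while its tails of 6 to 15 nt numbered 1 and 2 and none ended in T. The other transcripts had 15.6% and 11.8% in the first of these classes and 3.83% and 2.58% in the second. In Zfp987 they fell between 6 and 15 nt, with 4 of 7 and 5 of 8, and between 1 and 5 nt, with 0 of 3 and 5 of 18, with 1 of 8 more at 16 to 30 nt in replicate 2. Pooled over 16 to 30 nt the intervals of the genes overlapped, at 10 of 31 for Zfp980 (18.6 to 49.9) and 1 of 14 for Zfp987 (1.27 to 31.5). The other transcripts had 32.5% and 20.9% between 6 and 15 nt and 2.33% and 1.42% between 1 and 5 nt. No Zfp987 tail over 30 nt ended in T, 0 of 54, which allows a share of up to 5.56%, and Zfp980 had 3 of 73. Over the range of 6 to 30 nt the pooled shares were 10 of 34 for Zfp980 (29.4%, 16.8 to 46.2) and 10 of 29 for Zfp987 (34.5%, 19.9 to 52.7), beside 15.2% of the other transcripts.

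Of the Zfp980 tails of 16 to 30 nt that ended in T in replicate 2, 5 of 6 were the sequence with T at both ends printed first above. Of the 5 tails of Zfp987 of 1 to 5 nt that ended in T in replicate 2, 3 were aaaaT and 2 were aT. With identical tails of a gene and replicate counted once, the T-ending tails were 4 and 4 in Zfp980 and 3 and 7 in Zfp987. Reads of identical sequence may be copies of a molecule or separate molecules, and these cannot be told apart. Across the 1775 genes, of tails with at least 2 non-A bases before any run of T at the end, 30 of 3125 (0.960%) repeated another tail of their gene in replicate 1 and 174 of 4828 (3.6%) in replicate 2. A tail read 5 times or more occurred in 0 and 3 genes. Repeats were thus the more frequent in the deeper replicate 2, where the short tails of the pair also were, and their part in those counts was not tested. Counting each distinct tail of a gene and replicate once left 39 and 56 distinct tails of Zfp980 with geometric means of 38.9 nt and 48.0 nt, and 37 and 45 of Zfp987 with 37.2 nt and 38.5 nt. In that count all tails of a lone A become 1 tail, whether or not they were separate molecules.

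**Figure D3:**
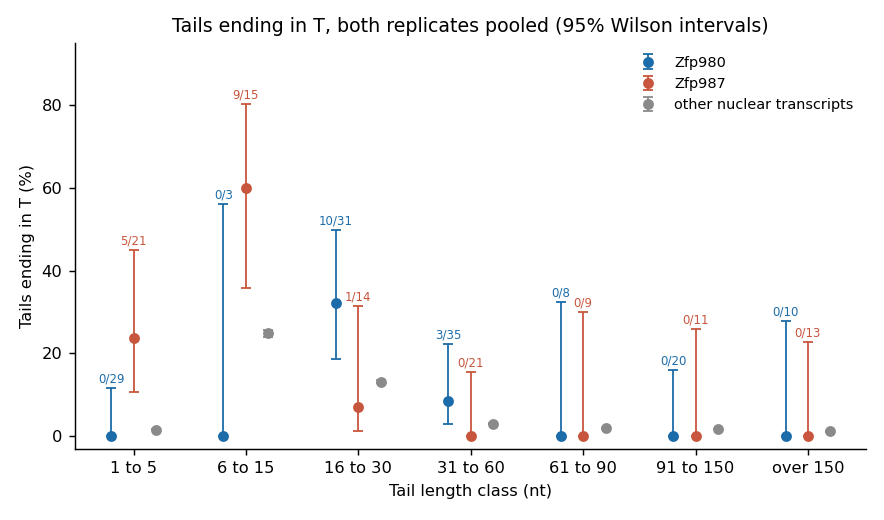
Percent of tails whose last base is T in each tail length class (nt), both replicates pooled, for Zfp980, Zfp987 and all other nuclear transcripts, with 95% Wilson intervals and the counts above each member. T-ending tails of Zfp987 stand at 9 of 15 between 6 and 15 nt and those of Zfp980 at 10 of 31 between 16 and 30 nt, where the other transcripts have 24.8% and 13.2%.

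Non-A bases anywhere in the tail were found in 8 of 45 and 14 of 91 tails of Zfp980 (17.8% and 15.4%) and in 7 of 39 and 15 of 65 of Zfp987 (17.9% and 23.1%), beside 12.2% and 9.54% of the other transcripts. These shares were not matched by length, and 5 of the 14 Zfp980 tails in replicate 2 were the repeated sequence. T was the most frequent: 20 of 136 Zfp980 tails (14.7%) and 20 of 104 Zfp987 tails (19.2%) held a T, whereas 2 and 2 held a C (1.47% and 1.92%) and 4 and 0 held a G. Among the other transcripts, by replicate, 7.16% and 5.37% held a T, 3.61% and 3.01% a C, and 2.76% and 2.31% a G. Tails that began with a base other than A were 7 of 136 in Zfp980 (5.15%, 2.52 to 10.2) and 0 of 104 in Zfp987, which allows up to 2.88%, with 0.616% among the other transcripts, and 5 of those 7 were the repeated sequence. A run of at least 2 T at the end closed 8 Zfp980 tails, all in replicate 2. These were 3 distinct sequences, counting the repeated sequence, which made up 5 of the 8. Such a run closed 4 and 2 Zfp987 tails, with 3 and 2 distinct sequences. At the class shares of the other transcripts the same lengths would have given 1.63 and 1.19 such tails for Zfp980 and 1.88 and 1.51 for Zfp987.

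The surrounding region shared the low tail lengths in part. Within 2 Mb of the start of either member, 161 genes are annotated, 58 had a transcript, and 28 besides the pair had at least 10. Of these 28 neighbours, 13 were below 50 nt (46.4%) with a median gene of 53.0 nt, where all 7146 genes had 11.9% and 76.4 nt. The 12 neighbours named Zfp had a median of 41.0 nt with 7 below 50 nt, and the other 16 had 56.3 nt with 6 below. This split is by name only. The other 16 include Rex2, Gm21411 and Gm13212, whose annotated transcripts share sequence with the members. They also include 4 processed pseudogenes, of which 3 were below 50 nt. Zinc finger genes named Zfp elsewhere in the genome also lay below the general level, with a median of 59.6 nt and 45 of 141 below 50 nt (31.9%).

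Several neighbours were shorter than the pair but had fewer than 30 transcripts in a replicate. Zfp978 had 8.96 nt from 37 transcripts, of which 51.4% had tails of 1 to 5 nt, and Zfp981 had 19.9 nt from 34. The processed pseudogenes Gm13231 and Gm13034 had 7.77 nt from 11 transcripts and 9.65 nt from 15. Other neighbours were longer, with Zfp600 at 46.5 nt from 97 transcripts, Rex2 at 57.2 nt from 127, Zfp985 at 60.4 nt from 267, Zfp989 at 68.8 nt from 80 and Zfp992 at 87.6 nt from 19. The region was thus mixed, with short and long genes side by side.

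The difference between replicates was also seen around the pair. Of 15 neighbours with at least 10 transcripts in each replicate, 10 had the shorter geometric mean in replicate 2, with a median ratio of 0.650, while 52.9% of all 4286 such genes did so, with a median ratio of 0.987. Zfp990, for example, had 56.0 nt in the first replicate against 28.1 nt in the second, and Zfp982 had 71.9 nt against 23.1 nt. Others went the opposite way, such as Zfp600 with 34.4 nt and 55.2 nt and Rex2 with 50.5 nt and 61.5 nt.

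**Figure D4:**
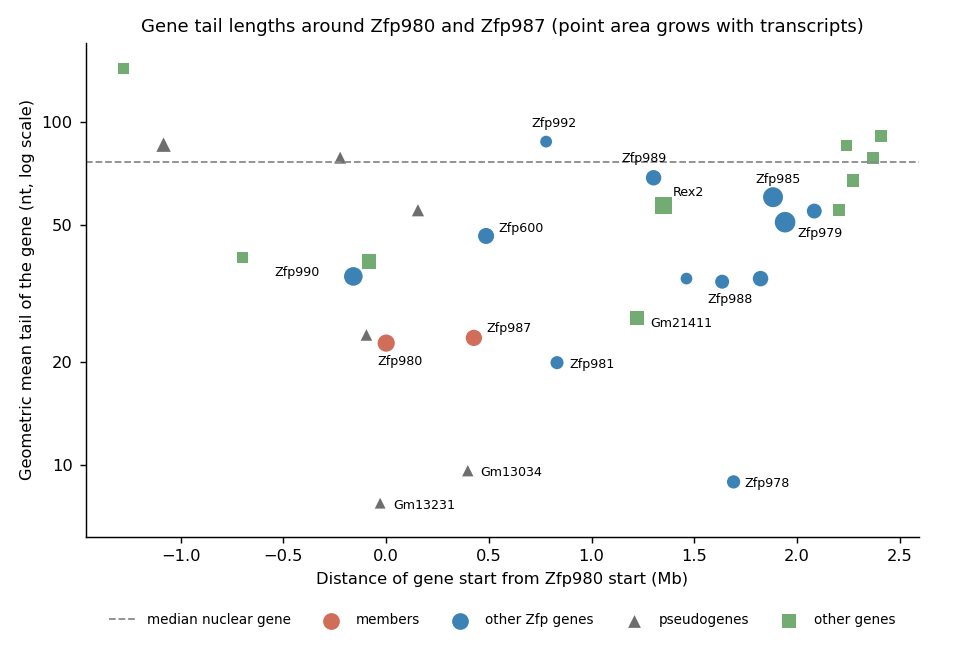
Geometric mean tail length (nt, log scale) of the 30 genes with at least 10 transcripts within 2 Mb of either member, by the distance of each gene start from that of Zfp980 (Mb), with the median of all nuclear genes at 76.4 nt (dashed). Both members lie near 23 nt, Zfp978 and the pseudogenes Gm13231 and Gm13034 lie below 10 nt, and 15 of the 30 genes are below 50 nt.

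The annotated transcripts of these genes share much sequence, and how surely their reads were assigned was not tested. Annotated transcripts were cut into all words of 31 bases, and 82.4% of the words of Zfp980 and 80.9% of those of Zfp987 also occurred in another gene of the window. Zfp980 shared 69.8% of its words with Zfp600, 69.8% with Rex2, 38.2% with Zfp981 and 17.1% with Zfp978. Zfp987 shared 57.0% with Zfp988, 46.4% with Zfp989, 31% with Zfp990 and 17.9% with Zfp985. The members had little in common with each other, at 3.37% of the words of Zfp980 and 4.51% of those of Zfp987, so they belong to different groups of similar genes. No sequencing well held reads of both members.

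Among the similar neighbours, some had few tails of 1 to 5 nt and others had many. Zfp600 and Rex2, which share the most with Zfp980, had 8.25% and 5.51% of their tails in the class of 1 to 5 nt against 21.3% for Zfp980. Zfp981 and Zfp978, which share less of Zfp980, had 23.5% and 51.4%. Zfp988 and Zfp989, which share the most with Zfp987, had 10.2% and 1.25% against 20.2% for Zfp987. The share of the members' reads that belong to a similar gene was not tested. The pseudogenes Gm13231 and Gm13034 shared no word with either member.

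**Figure D5:**
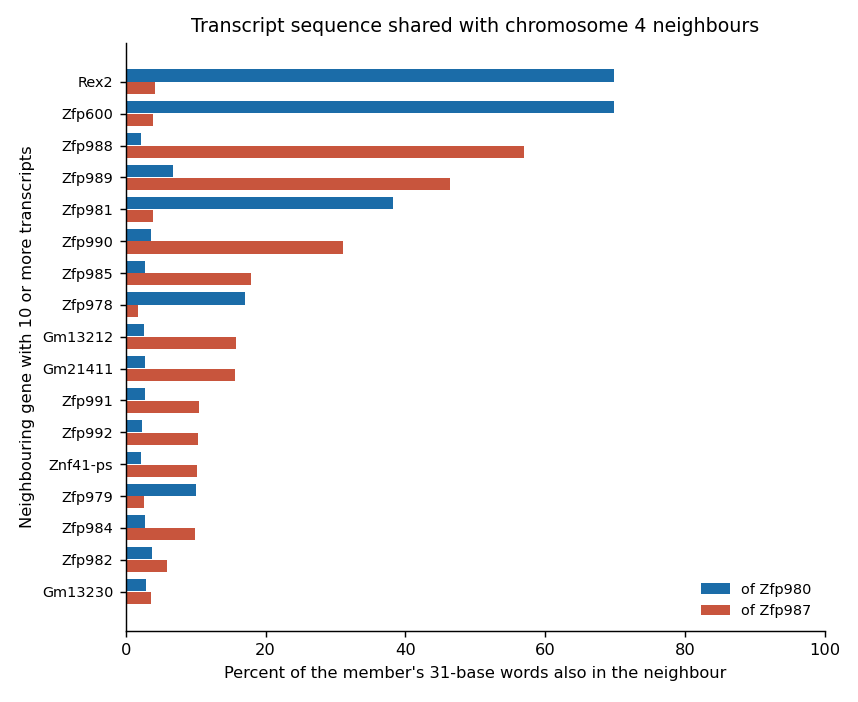
Percent of the 31-base words of Zfp980 and of Zfp987 that also occur in each neighbouring gene with at least 10 transcripts, for the neighbours that share any. Zfp980 stands out with Rex2 and Zfp600 at 69.8% each, and Zfp987 with Zfp988 at 57.0% and Zfp989 at 46.4%.

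The cells were checked against markers of their labelled state. The shared pluripotency genes Pou5f1 and Sox2 gave 146 and 242 transcripts in the replicates and the 5 formative genes, among them Fgf5, Otx2 and Dnmt3b, 427 and 625. Of 8 naive genes 7 were detected, with 162 and 427 transcripts, of which Zfp42 made up 129 and 372 while Prdm14 was at 0. As a share of nuclear transcripts, Zfp42 was at 0.0524% and 0.0816%, and the other 7 naive genes together at 0.0134% and 0.0121%. The formative genes stood at 0.173% and 0.137%, with Dnmt3b lower in replicate 2 (0.0601% and 0.0331%) and Otx2 higher (0.0195% and 0.0246%). The part of these differences in the tails of the pair was not tested. Of the other cell types, 1 of 3 mesendoderm markers gave 3 and 2 transcripts with T and Mixl1 at 0, 1 of 3 primitive endoderm markers gave 0 and 1 with Gata4 and Sox17 at 0, Sox1 and Pax6 gave 5 and 0, and the fibroblast genes Col1a1 and Col1a2 gave 0 in both. A count of 0 allows a share of up to 0.00122% in replicate 1 and 0.000658% in replicate 2.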

How the data were processed

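PAIso-seq was done on total RNA of 1 wild-type sample with 2 barcoded replicates. Per the methods, the authors called consensus reads with ccs 4.2.0, mapped them to mm10 with minimap2 2.17, removed repetitive reads, took the soft-clipped 3′ bases as the tail, removed tails with fewer than 4 A in the first 8 bases, extended tails into adjoining A tracts, discarded reads without a tail and assigned genes with featureCounts 2.0.1 (versions of the mapper and counter are from the submitters' processing notes). Reads without a tail therefore do not enter, and an A of the genome beside the tail can be counted in it. The deposited table has 1013675 reads and gives, per the file, whole-number counts of passes and of each base in the tail. The values are counts per read, not counts per gene.

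Reads of at least 7 passes were kept, 354259 and 593361 by replicate. Of 12962 gene identifiers, 12955 matched GENCODE vM21. Gene tails are geometric means, as in the study. Python 3.11.15, pandas 2.3.3 and scipy 1.17.1 were used, and the steps were tested on simulated data. There is 1 group, so no comparison of conditions and no p-value was made. The members and lists were chosen with earlier results of these data known. Named genes were the members, the 3 genes just outside them by length, the 5 with the most similar class shares among genes read at least 30 times in both replicates, and neighbours within 2 Mb with at least 10 transcripts. Genes shorter than the members and markers were named besides. Alternatives were the minimum of passes, the minimum of tail length, the summary per gene, a left-out replicate, wells with 1 read, the size of the window and, chosen after seeing the data, identical tails counted once and the filter on the first 8 bases applied to the table, which holds tails that do not meet it. The barcode was taken as the replicate, as the labels give no other number. Intervals are Wilson intervals at 95%. The share that a count of 0 allows is instead 3 counts over the number of tails or transcripts, which can differ from the upper Wilson limit.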

Additional observations from a re-analysis of the deposited data

How the results depend on the processing

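No paired analysis was possible because the samples analysed here form 1 group. Of 100 values recomputed for 14 quantities, besides those with a replicate left out, 63 moved by less than 1 SD between the replicates. For the share of tails of 1 to 5 nt that SD was wide, at 15.5 points for Zfp980 and 14.1 for Zfp987. With identical tails counted once, this share fell from 21.3% to 6.32% for Zfp980 and from 20.2% to 8.54% for Zfp987. Both falls are counted among the 63. The pooled tail length ranged from 18.4 nt to 34.7 nt for Zfp980 and from 19.3 nt to 32.6 nt for Zfp987 with a replicate left out. Leaving out tails under 6 nt gave 48.6 nt and 45.5 nt, and leaving out those under 15 nt gave 50.6 nt and 59.5 nt, since the shortest class is then absent. The arithmetic mean gave 52.7 nt and 54.6 nt, the median 36 nt and 33 nt, and identical tails counted once 44.1 nt and 37.9 nt. With at least 4 A in the first 8 bases, the tail length was 46.5 nt and 41.0 nt, tails of 1 to 5 nt made up 1.83% and 4.60%, the genes differed by 5.53 nt, 20.2% of Zfp980 tails held a non-A base, the shares of nuclear transcripts were 0.0159% and 0.0127%, the neighbours had a median of 67.9 nt with 16% below 50 nt against 3.82% of all genes, and the median Zfp gene had 66.1 nt. The difference of Zfp980 minus Zfp987 changed sign with the setting: -0.81 nt pooled, -0.92 nt to 2.11 nt with a replicate left out, 1.59 nt with no minimum of passes, 3.11 nt and -8.87 nt without tails under 6 nt and under 15 nt, 3 nt by the median and 6.14 nt with identical tails counted once. The share of Zfp980 tails with a non-A base was 16.2%, and 20.6% with tails of at least 6 nt and 17.9% with identical tails counted once. The share of nuclear transcripts was 0.0156% in place of 0.0194% for Zfp980 and 0.0121% in place of 0.0148% for Zfp987 with tails of at least 6 nt, and was 0.0171% for Zfp987 with identical tails counted once. The neighbours' median of 53.0 nt became 67.9 nt with tails of at least 6 nt, 71 nt by the median per gene and 39.8 nt within 1 Mb. Their share below 50 nt was 12% in place of 46.4% with tails of at least 6 nt, when that of all genes was 3.19%, was 28.6% with identical tails counted once (all genes 6.30%) and 64.3% within 1 Mb, and ran from 23.5% to 54.5% with a replicate left out, when all genes had 6.46% to 13.5%. The median Zfp gene, 58.7 nt, became 66.9 nt with tails of at least 6 nt and 73 nt by the median per gene.

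With 39 to 91 transcripts per gene and replicate, class shares carry wide intervals, and 2 replicates give no more than a spread.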

Other observations

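Reads under the minimum of 7 passes, which enter the values above only where no minimum of passes was set, numbered 11 for Zfp980 and 12 for Zfp987. Their geometric mean tails were 40.3 nt and 13 nt, tails of 1 to 5 nt were 0 and 5 of them, and 3 and 4 ended in T. Wells with more than 1 read gave 9 transcripts of Zfp980 and 8 of Zfp987.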
